A study of Oryza sativa with 4 samples.

Results

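In rice, AOX1 encodes an alternative oxidase, ETFA the alpha subunit of the electron transfer flavoprotein, and ETF-QO the oxidoreductase that passes electrons from that flavoprotein to ubiquinone. These genes were chosen by name, as AOX1 or AOX1 followed by a letter, ETF-QO and ETFA, among the symbols and synonyms of a table of rice genes. The rule found 3 genes out of the 17905 that have a probe set of their own, and 4 probe sets out of 57194. AOX1 (LOC4336874, also AOX1a) has 1 probe set, and no second gene carried an AOX1 name in the table. ETF-QO (LOC4349116) has 1, whose _x_at ending marks probes that can bind several transcripts, so its signal may include other genes. ETFA (LOC4334698) has 2, which are described separately. All 4 lay at or above the median level of all probe sets.

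Plant mitochondria can send electrons to oxygen by more than 1 path. The cytochrome path runs through complex III, cytochrome c and cytochrome c oxidase and pumps protons, whereas the alternative oxidase takes electrons straight from ubiquinol and pumps none. A further entry to the ubiquinone pool is the electron transfer flavoprotein (ETF), a dimer of an alpha and a beta subunit that collects electrons from dehydrogenases of amino acid and fatty acid breakdown and hands them to ETF:ubiquinone oxidoreductase. In Arabidopsis this system is known for its use of branched-chain amino acids and lysine as respiratory fuel when leaves are kept in the dark and sugars run low.

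The study asked how rice leaves respond to air very rich in CO2. Leaves came from plants of the cultivar Senia at the second vegetative stage, grown with 16 h of light and 8 h of dark. The treated group spent 6 h in the dark at 27 ± 2 °C in sealed bags with CO2 injected up to 30%, and the control group spent the same time in the dark at the same temperature in normal atmosphere, labelled 0.04% CO2. There were 2 biological replicates per group, each pooled from the leaves of 10 plants, and whether the control plants were bagged is not stated. All 4 samples were thus darkened, so that the comparison holds the dark constant. A high CO2 level and enclosure in a sealed bag cannot be told apart in this design.

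Across the whole table, values ran from 1.50 to 13.88 on the log2 scale, and the medians of the samples lay between 3.85 and 3.92. The leaf markers, with a probe set for 11 of 12 genes, had mean log2 signals of 10.80 and 10.73 in the controls and of 10.43 and 10.30 under CO2. Of these 11, PSB28 rose (log2 difference 1.06), FNR (LOC4342399), RCABP89 and PSAH fell (-1.35, -1.33 and -0.84), and RBCS1 had a low signal in every sample, between 2.74 and 3.30. The 6 measured root markers had means between 4.30 and 4.56 in the 4 samples, and IRT2 rose by 3.03 while IRT1 fell by 2.47. The 5 measured markers of dividing cells had means of 4.74 and 4.51 in the controls and of 4.39 and 4.25 under CO2, and ORC2 fell by 1.00. By the same rule, limma's adjusted p under 0.05 over all probe sets, 22.4% of all genes passed, 8.93% as higher and 13.5% as lower. The part of these shifts in the results below was not tested. In whole leaves, fewer cells of a type and less RNA per cell cannot be told apart.

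ETF-QO and ETFA were higher in both CO2 samples than in both controls, ETF-QO by 2.26-fold and ETFA by 1.84-fold on its brighter probe set. AOX1 was lower in both CO2 samples, by 2.12-fold on average, but its difference did not pass the test over all probe sets. In limma's test with Benjamini-Hochberg adjustment and a threshold of 0.05, 2 of the 4 probe sets were called, both higher. Of all probe sets 11.5% were called, 4.73% higher and 6.78% lower. That share includes many dimmer probe sets, and of all genes, each by its brightest probe set, 22.4% were called. The groups did not overlap on 3 of the 4 probe sets, which is also true of 53.9% of all probe sets (27.8% with CO2 above and 26.0% with CO2 below the controls).

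AOX1 encodes the terminal oxidase of the alternative path, and in many plants it is one of the genes that respond when the cytochrome path is blocked. Its log2 signals were 7.44 and 7.50 in control replicates 1 and 2, and 6.78 and 5.98 in CO2 replicates 1 and 2. Both CO2 values lay below both controls, with the controls close together and the CO2 samples well apart. The difference between the CO2 replicates, 0.80, was larger than that of 96.0% of all probe sets, whereas the controls differed by 0.06. The mean went from 7.47 ± 0.04 (SD, n = 2) in controls to 6.38 ± 0.56 under CO2, a log2 difference of -1.09 ± 0.28 (SE), with a 95% interval from -1.82 to -0.36.

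The call on AOX1 was not the same in every fit. Its unadjusted p was 0.0126, and the largest unadjusted p that passed over all probe sets was 0.00575, so that AOX1 missed the threshold (limma adjusted p = 0.0821). With 1 probe set kept per gene and the adjustment made over the 17905 genes, the limit moved to 0.0156 and AOX1 passed (limma adjusted p = 0.0433). In that version 31.2% of all genes passed, with 12.4% of all genes higher and 18.8% lower. The size of the difference also rested on CO2 replicate 2: without it the log2 difference was -0.69 (limma adjusted p = 0.095), and without CO2 replicate 1 it was -1.48 (limma adjusted p = 0.0761).

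**Figure D1:**
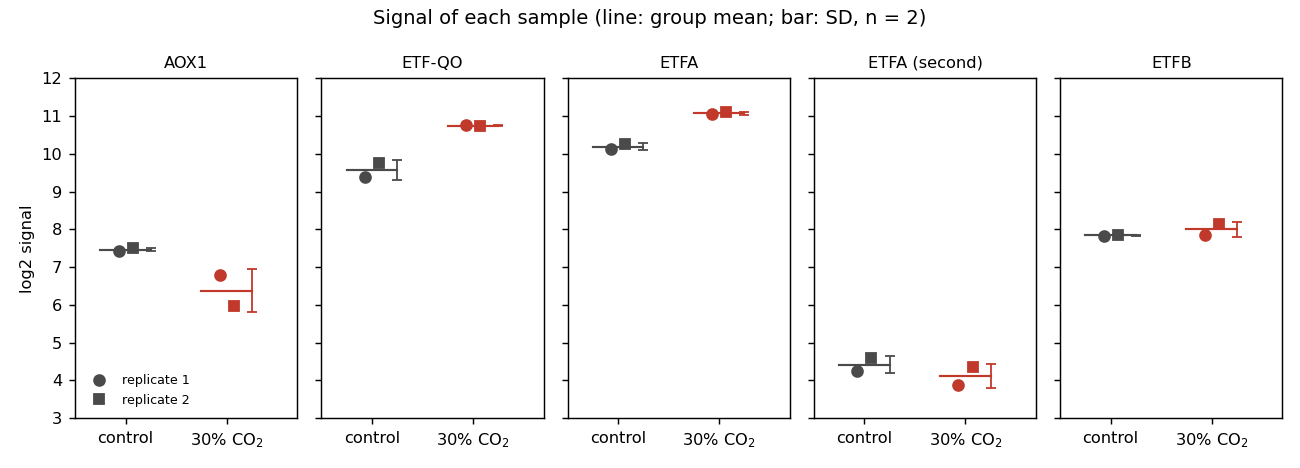
Log2 signal (y axis) of each sample for AOX1, ETF-QO, both probe sets of ETFA and the single probe set of ETFB, in controls and under 30% CO2 (x axis). Circles are replicate 1 and squares replicate 2, lines are group means and bars the SD of 2 samples. ETF-QO and the brighter ETFA probe set were higher in both CO2 samples, AOX1 was lower in both with CO2 replicate 2 at 5.98, and the groups overlapped on the second ETFA probe set.

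ETF-QO encodes the membrane-bound iron-sulfur flavoprotein that passes electrons from ETF to ubiquinone. Its log2 signals were 9.39 and 9.75 in control replicates 1 and 2, and 10.75 and 10.73 in CO2 replicates 1 and 2. Here the CO2 samples were almost equal, 0.02 apart, and the controls were 0.37 apart, a wider gap than 85.7% of all probe sets showed between controls. The lower of the CO2 samples still exceeded the higher control by 0.98. From a control mean of 9.57 ± 0.26 (SD, n = 2) the signal rose to 10.74 ± 0.01, a log2 difference of 1.17 ± 0.16 (SE), with a 95% interval from 0.75 to 1.60 (limma adjusted p = 0.018). As the probe set can bind several transcripts, the rise cannot be assigned to ETF-QO alone.

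ETFA encodes the alpha subunit of the ETF dimer, which carries electrons between the dehydrogenases and ETF-QO. On its brighter probe set the log2 signals were 10.13 and 10.26 in control replicates 1 and 2, and 11.05 and 11.11 in CO2 replicates 1 and 2. Replicates stood close together in both groups, at gaps of 0.12 and 0.06, and the groups were 0.79 apart at their nearest values. The mean rose from 10.20 ± 0.09 (SD, n = 2) to 11.08 ± 0.04, a log2 difference of 0.88 ± 0.12 (SE; limma adjusted p = 0.0179). In folds this was a rise of 1.84-fold, with a 95% interval from 1.48-fold to 2.30-fold.

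The second ETFA probe set gave no such difference. Its log2 signals were 4.25 and 4.58 in control replicates 1 and 2, and 3.89 and 4.35 in CO2 replicates 1 and 2, so that the groups overlapped. The log2 difference was -0.30 ± 0.21 (SE; 95% interval -0.86 to 0.25; limma adjusted p = 0.464). Its control mean stood at the 56.6th percentile of all probe sets, near the middle of the table, and the table gives no detection calls to say whether it was above background. When ETFA was taken as the mean of both probe sets, its log2 difference was 0.29 (limma adjusted p = 0.286), so the rise of ETFA rests on 1 of its 2 probe sets. The changes of both probe sets differed by 1.18 on the log2 scale, more than the gaps between replicates in their ratio, which were 0.40 under CO2 and 0.21 in controls.

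The differences of these genes were set against each other within samples. Across 5 such pairs, the exact permutation test over samples (two-sided) gave 0.333 each, also after adjustment over the 5 pairs, which is the smallest p that 2 samples per group allow. The change of ETF-QO exceeded that of AOX1 by 2.26 on the log2 scale, with gaps between replicates of 0.78 under CO2 and 0.30 in controls. ETFA exceeded AOX1 by 1.97, with gaps of 0.86 and 0.06. The changes of ETF-QO and ETFA were closer, 0.29 apart, with gaps of 0.08 and 0.24. In size, the differences of AOX1, ETF-QO and the brighter ETFA probe set exceeded those of 91.5%, 92.6% and 88.3% of all probe sets, while 3052 probe sets had a smaller p than ETF-QO and 3028 had a smaller p than ETFA.

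**Figure D2:**
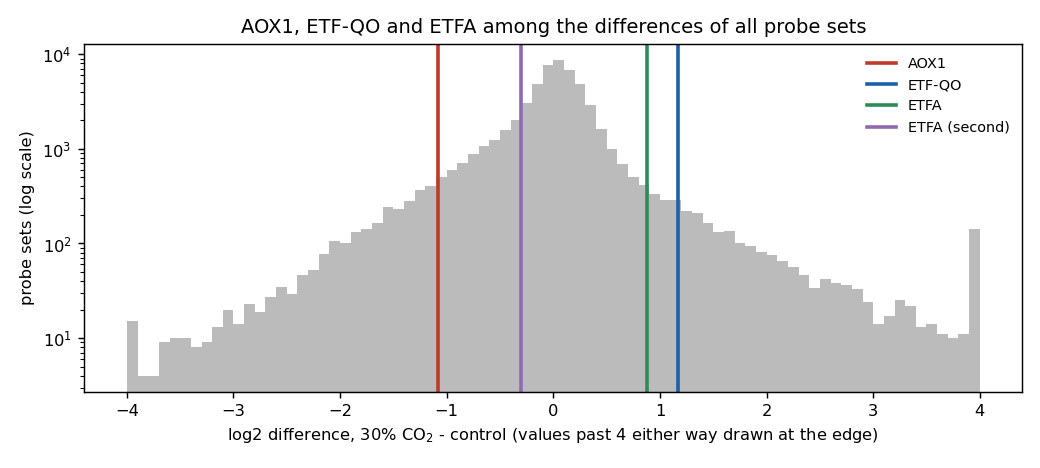
Log2 differences (x axis, 30% CO2 minus control) of all 57194 probe sets as a histogram with the number of probe sets on a log scale (y axis), values past 4 in either direction being drawn at the edge. Vertical lines mark AOX1 at -1.09, the second ETFA probe set at -0.30, the brighter ETFA probe set at 0.88 and ETF-QO at 1.17. In size the second ETFA probe set exceeded 63.3% of all probe sets, and the others between 88.3% and 92.6%.

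Leaving out 1 sample ended the calls of ETF-QO and ETFA in each of the 4 cases, although the differences kept their size. For ETF-QO the log2 difference was 1.16 without CO2 replicate 1, 1.18 without CO2 replicate 2, 0.99 without control replicate 1 and 1.36 without control replicate 2, with limma adjusted p-values from 0.102 to 0.169. For ETFA these differences were 0.91, 0.85, 0.82 and 0.94, with limma adjusted p-values from 0.0814 to 0.184. In 3 of these 4 fits limma called 0 of all probe sets, though between 9246 and 11506 had an unadjusted p under 0.05, so that calls lost there say nothing about these genes in particular. The fit without CO2 replicate 2 still called 2477 probe sets, and neither ETF-QO (limma adjusted p = 0.102) nor ETFA (limma adjusted p = 0.0814) was among them.

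The partners of ETFA and ETF-QO were measured too. ETFB (LOC4335102), for the beta subunit of the same dimer, had log2 signals of 7.82 and 7.86 in control replicates 1 and 2, and 7.86 and 8.14 in CO2 replicates 1 and 2. One CO2 sample was thus level with the controls and the other was higher. Its log2 difference was 0.16 ± 0.15 (SE; 95% interval -0.22 to 0.54; limma adjusted p = 0.583), an interval that lies below the value of 0.88 for ETFA. The change of ETFA exceeded that of ETFB by 0.72, with gaps between replicates of 0.22 under CO2 and 0.09 in controls.

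Electrons reach ETF from dehydrogenases, of which D2HGDH and IVD had probe sets. D2HGDH (LOC4342598), for the D-2-hydroxyglutarate dehydrogenase known as an ETF donor in Arabidopsis, rose from 9.11 and 9.03 in the controls to 9.72 and 9.90 in CO2 replicates 1 and 2. Its log2 difference was 0.74 ± 0.13 (SE; limma adjusted p = 0.0322), and its other probe set gave 0.71 (limma adjusted p = 0.038). Both probe sets of D2HGDH were thus called in the same direction. It was not called with 1 sample left out (limma adjusted p from 0.106 to 0.256) or in the test against a 1.2-fold change (0.0868). IVD (LOC4337676), for the isovaleryl-CoA dehydrogenase of leucine breakdown, had log2 signals of 11.56 and 11.78 in the controls and of 11.30 and 11.69 under CO2, and these ranges overlapped. Its log2 difference was -0.18 ± 0.18 (SE; limma adjusted p = 0.629). Of the 3 genes ETFB, D2HGDH and IVD, 1 therefore rose and 2 did not pass, where 22.4% of all genes passed in either direction.

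In a list of other genes of amino acid and GABA breakdown, 5 were measured, of which 1 fell, none rose and 4 did not pass. By the same rule, 13.5% of all genes fell and 8.93% rose. GDH1 (LOC4334405), for a glutamate dehydrogenase, went from 8.96 and 8.75 in the controls to 6.73 and 7.71 in CO2 replicates 1 and 2. The CO2 samples lay 0.98 apart but both were below the controls, and the log2 difference was -1.63 ± 0.34 (SE; limma adjusted p = 0.0483). That call was lost without CO2 replicate 1 (-1.14, limma adjusted p = 0.101), control replicate 1 (limma adjusted p = 0.338) or control replicate 2 (limma adjusted p = 0.312), and held without CO2 replicate 2 (-2.12, limma adjusted p = 0.0458). It was also lost in the test against a 1.2-fold change (limma adjusted p = 0.0766). GDH2 and GDH3, other genes of that family, stood at -0.67 and 0.07 without passing, though a dimmer probe set of GDH2 was called at -1.03 (limma adjusted p = 0.0186). The succinic semialdehyde dehydrogenase gene ALDH5F1, of GABA breakdown, was close to the threshold at -0.88 (limma adjusted p = 0.0512). MCCA, for a subunit of the methylcrotonyl-CoA carboxylase that acts after IVD in leucine breakdown, stood at 0.11.

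The cytochrome path shares ubiquinol with the alternative oxidase. In a list of its genes with succinate dehydrogenase and ATP synthase, 1 of 11 measured genes rose, none fell and 10 did not pass. Of all genes, 22.4% passed by that rule. CC-1 (LOC4338825), for cytochrome c, went from 10.75 and 10.57 in the controls to 11.78 and 11.88 in CO2 replicates 1 and 2. Both CO2 samples were more than 1 log2 unit above both controls. Its log2 difference was 1.17 ± 0.13 (SE; limma adjusted p = 0.0114), with limma adjusted p-values from 0.0682 to 0.177 when 1 sample was left out. A second probe set of CC-1, which can bind several transcripts, gave 1.42 (limma adjusted p = 0.0081), while a dim one gave -0.38 (limma adjusted p = 0.313).

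The other genes of that list changed less. COX5c, for a subunit of cytochrome c oxidase, stood at 0.31 (limma adjusted p = 0.355), and atpB (LOC4339546), for a beta subunit of ATP synthase, at -0.46 (limma adjusted p = 0.128). The table does not say whether this atpB is the mitochondrial or the plastid form, so it may not belong to respiration. All 8 genes for succinate dehydrogenase, another flavoprotein complex that feeds ubiquinone, had differences above 0 on their brightest probe sets, from 0.03 to 0.47. None passed (lowest limma adjusted p = 0.139), and the median absolute difference over all probe sets was 0.20. The highest, SDH2-1, gave 0.36, 0.0001 and -0.09 on its other probe sets. Each of the 8 genes was higher in CO2 replicate 2 than in CO2 replicate 1. In CO2 replicate 1, SDH4 (8.99 against 9.29 and 9.14) and SDH3-2 (8.51 against 8.73 and 8.57) lay below both controls. SDH5 and SDH7 lay between the controls there, and the other succinate dehydrogenase genes lay above both. The 4 genes for the E1 subunits of pyruvate dehydrogenase stood between -0.26 and 0.11 and none passed. The smallest p-values among them belonged to a PDHE1-A gene (LOC4330673) at -0.18 and a PDHE1-B gene (LOC4347531) at 0.11, with limma adjusted p-values of 0.462 and 0.668. No gene carried a name of the alternative NAD(P)H dehydrogenases or uncoupling proteins in the table used.

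**Figure D3:**
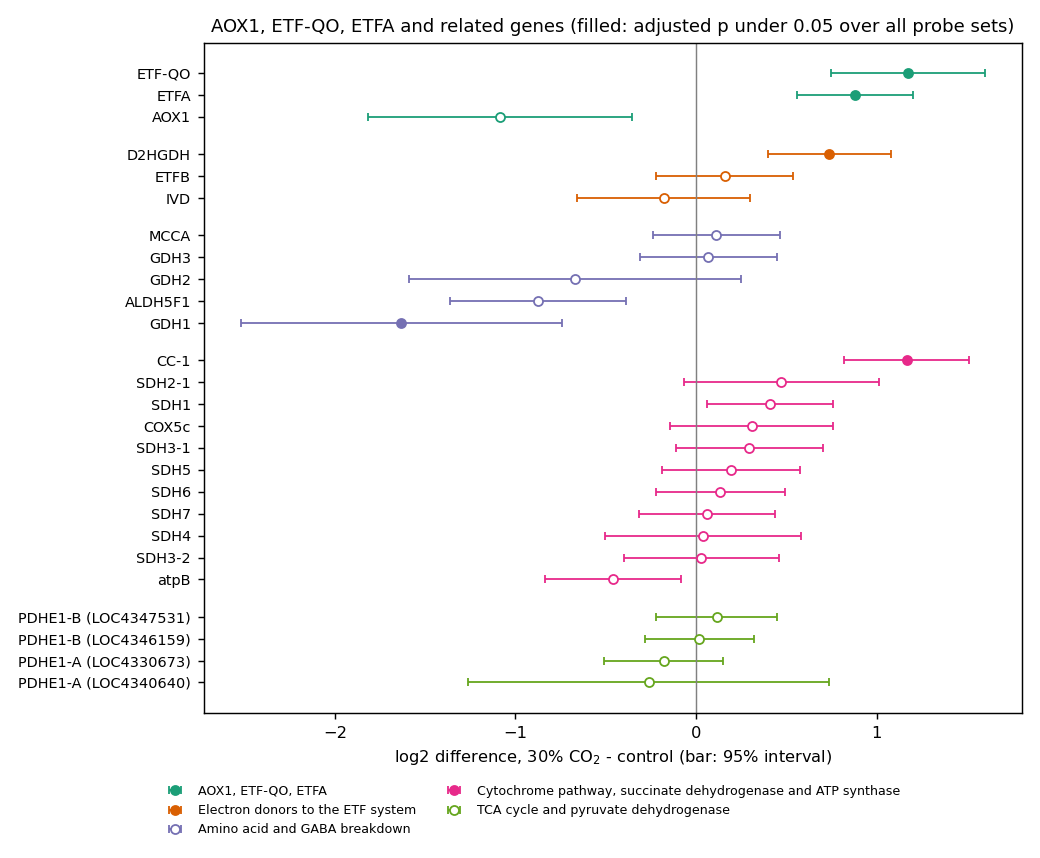
Log2 differences (x axis, 30% CO2 minus control, with 95% intervals) of AOX1, ETF-QO, ETFA and the 23 measured genes of 4 lists, 1 gene per line. Filled points passed an adjusted p of 0.05 over all probe sets. CC-1 and D2HGDH passed as higher and GDH1 as lower, next to ETF-QO at 1.17 and ETFA at 0.88, and most others lay near 0.

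Over these 4 lists, 2 of 23 genes rose, 1 fell and 20 did not pass. That is 13.0% called, against 22.4% of all 17905 genes by the same rule, of which 8.93% were higher and 13.5% lower. The median difference of the 23 genes was 0.07, against -0.08 over all genes. The lists were chosen with earlier results of these data known and hold only genes with a name.

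The named genes with the most similar pattern over the 4 samples were found by the Euclidean distance between log2 values, each gene being set to 0 at its control mean, among 2426 named genes. For ETF-QO they were ME6, for an NADP-malic enzyme, OsTLP14, for a Tubby-like protein, and CBL3, for a calcineurin B-like calcium sensor, at distances of 0.14, 0.17 and 0.17. ME6 had log2 signals of 9.06 and 9.50 in the controls and of 10.58 and 10.38 under CO2, and so shared the lower first control. For ETFA the nearest were OsTRN1, RIC2 and CLE202, at distances of 0.06, 0.07 and 0.08, with differences of 0.86, 0.86 and 0.90. For AOX1 they were BGLU36, of the beta-glucosidase family, MFT1 and the chitinase gene CH16, at 0.15, 0.28 and 0.30. Each of these last genes was lower in CO2 replicate 2 than in replicate 1, as AOX1 was, for example BGLU36 with 6.69 and 5.89 under CO2 against 7.21 and 7.33 in controls, and none of the 3 passed (lowest limma adjusted p = 0.106). With 4 samples such a likeness is a description only.

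Of the genes next to AOX1, ETF-QO and ETFA on the chromosome in the assembly ASM3414082v1, 4 had a probe set. Of these, 1 passed, where 22.4% of all genes passed by the same rule. The gene that passed was LOC4336873 beside AOX1, which has no name in the table. Its log2 signals were 5.80 and 5.18 in control replicates 1 and 2, and 7.41 and 6.91 in CO2 replicates 1 and 2. It rose by 1.67 ± 0.28 (SE; limma adjusted p = 0.0278). On the other side of AOX1, LOC4336875, also without a name, stood at 0.06 (limma adjusted p = 0.971). For neither gene is it known here whether it is an alternative oxidase gene. AOX1 may not be the only such gene on the array. LOC4349117 beside ETF-QO stood at 2.28 ± 0.64 (SE; limma adjusted p = 0.0997), and ACBP6, beside ETFA and named for an acyl-CoA-binding protein, stood at -0.13 (limma adjusted p = 0.575).

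**Figure D4:**
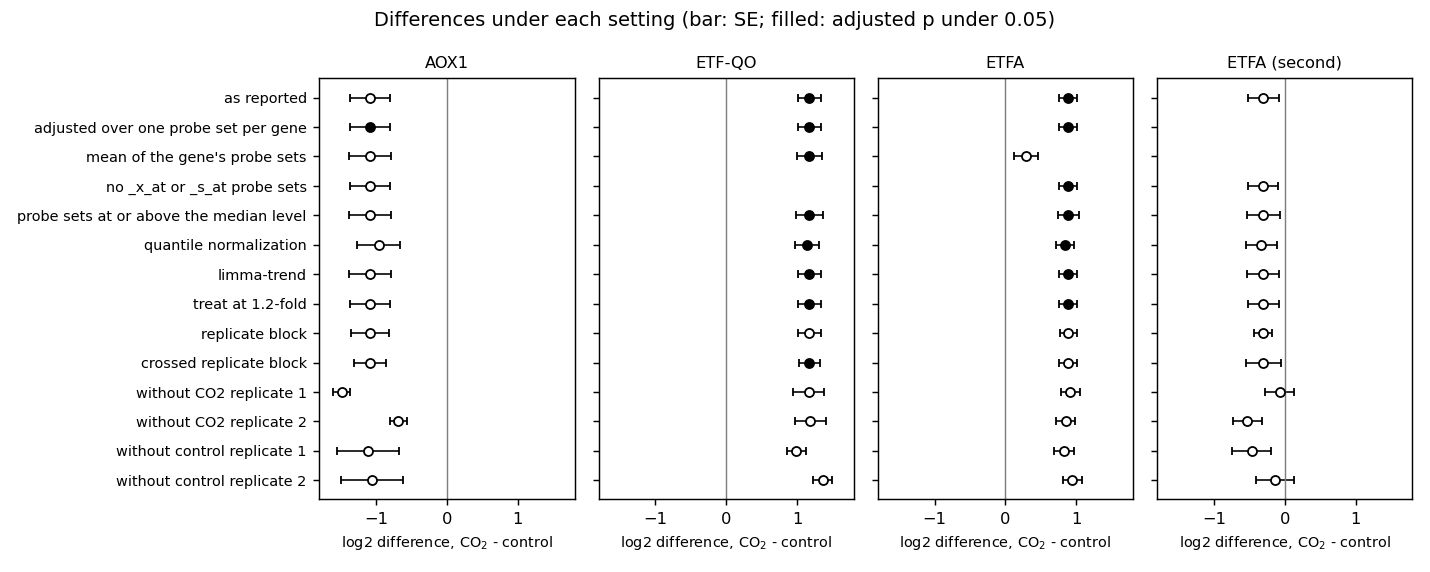
Log2 differences (x axis, 30% CO2 minus control, with SE) of AOX1, ETF-QO and both ETFA probe sets under each processing setting (y axis). Filled points passed an adjusted p of 0.05. AOX1 was filled in 1 setting, the adjustment over 1 probe set per gene, and ETFA moved from 0.88 to 0.29 as the mean of its probe sets.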

How the data were processed

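The authors deposited log2 signals per probe set for 4 Affymetrix rice arrays. Per the submitters' processing notes RMA and limma were used. Their versions and settings are not given in the sources used here. No rescaling was applied. Gene names came from the array's annotation table, matched by gene identifier to a table of rice genes (assembly ASM3414082v1, for names and neighbours only), and 22436 probe sets had 1 gene. For list genes the brightest probe set on average was used.

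The test, two-sided, was limma's (version 3.58.1, run in R 4.3.3, lmFit followed by eBayes) without block or filter on all 57194 probe sets, with Benjamini-Hochberg adjustment over all of them and a threshold of 0.05. There were 2 residual degrees of freedom, and the prior added 2.85. The labels do not say that replicates were grown separately beyond calling them biological. The fits were tested on simulated data. Figures used matplotlib 3.10.9 in Python 3.11.15.

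Genes and lists were chosen with earlier results of these data known. All probe sets of AOX1, ETF-QO and ETFA were named. In each list, genes past the threshold were named, up to 4 by size, or the 2 with the smallest p. Others named in the text, such as ETFB, IVD, MCCA, GDH2, GDH3, ALDH5F1, COX5c and atpB, were added after their values were seen. List genes were found by symbol or synonym, and 9 matches that name other proteins were removed. The alternatives were a replicate block, leaving out each sample, quantile normalization, a filter at the median level, limma-trend, adjustment over genes, the mean of a gene's probe sets, no probe sets that can bind several transcripts, and a test against a 1.2-fold change. Samples of the same replicate number did not deviate together (r = -0.10 across probe sets). Sequences were not used here. The number of arrays limits the precision.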

Additional observations from a re-analysis of the deposited data

How the results depend on the processing

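Every alternative kept the sign of the 4 probe sets. AOX1 passed only when adjusted over 1 probe set per gene (-1.09, limma adjusted p = 0.0433). Over its 13 alternatives the limma adjusted p ran from 0.0433 to 0.393. ETF-QO and ETFA held after quantile normalization, with limma-trend, with the 1.2-fold test (which ended the calls of D2HGDH and GDH1), with the filter and adjusted over genes. ETF-QO has no value without probe sets that can bind several transcripts, where ETFA held. Averaging both probe sets of ETFA gave 0.29 (adjusted p = 0.286). With the replicate block ETF-QO (1.17, adjusted p = 0.0674) and ETFA (0.88, adjusted p = 0.0671) were not called, and 806 probe sets were higher and 885 lower over the table, with 0 list genes called (4 at an unadjusted p under 0.05 in limma). With the numbers crossed, an alternative chosen after seeing the data, ETFA was not called (0.88, adjusted p = 0.0558), and 1484 probe sets were higher, 1994 lower, 1 list gene higher and 0 lower. Both block fits leave 1 residual degree of freedom.

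With 1 sample left out, the difference ran from -1.48 to -0.69 for AOX1, 0.99 to 1.36 for ETF-QO, 0.82 to 0.94 for ETFA and -0.53 to -0.07 for its second probe set. Higher probe sets ran from 0 to 1243 and lower ones from 0 to 1234, where only the fit without CO2 replicate 2 made calls. List genes called higher were 0 in each (2 to 6 at an unadjusted p under 0.05 in limma) and those called lower 0 to 1. A lone sample was assumed to vary like the other group. Over all samples, 2 list genes were lower after quantile normalization, with the filter and as means of probe sets, and 0 without probe sets that can bind several transcripts, where GDH1 missed the threshold (adjusted p = 0.0508).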
